A study of Mus musculus with 12 samples.

Results

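Embryonic stem cells that lack both Rlf and Zfp292 were compared with wild-type cells of the same line while both grew in the presence of LIF. The members of this comparison are the 6 libraries, of 12 in the series, whose titles place them in serum/LIF: 3 of wild-type cells (WT) and 3 of the double knockout (DKO, labelled Rlf/Zfp292 KO). All are RNA from TT2, a mouse embryonic stem cell line, and both genotypes were kept on gelatin with LIF, in ES medium whose supplements were 1% FBS and 10% Knockout Serum Replacement. The remaining 6 libraries come from the same genotypes after 72 hours in ES medium without LIF that held 5 µM retinoic acid (RA). They entered the fit from which the spread was estimated, and their values are given only where stated. The labels call the 3 libraries of a group biological replicates, but do not say whether they came from separate clones or how the genes were disrupted. The p-values therefore measure the spread between libraries of a group, pooled over all 12 libraries of the series. A difference between genotypes cannot be told apart from a difference between clones.

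Rlf and Zfp292 encode large zinc finger proteins found in the nucleus, and the title of the series ties them to the CoREST complex and to bivalent genes. CoREST joins the histone demethylase LSD1 (Kdm1a) with histone deacetylases and acts mostly as a repressor. Bivalent promoters carry an activating and a repressive histone mark together and are common at developmental genes in embryonic stem cells. LIF keeps such cells in self-renewal through STAT3, while FGF signalling moves them towards differentiation.

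The libraries held 31410028 to 40236799 reads in genes, and each DKO library was shallower than each WT library. On the first principal component of the 6 libraries, which took 54.6% of the variance, the genotypes lay on opposite sides. Values below are normalized counts, the number of reads divided by the size factor of the library. They serve to compare libraries for 1 gene and not genes with each other, since they are not scaled for gene length. Log2 differences are DKO minus WT on the log2(normalized count + 1) scale with the standard error (SE) of a limma fit, folds are ratios of group means, and a gene is called where the p adjusted by Benjamini-Hochberg over all 15750 genes tested is under 0.05. In bulk RNA, fewer cells of a type and less RNA per cell cannot be told apart.

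Of the 15750 genes, 5230 were called (33.2%), 2801 higher in DKO (17.8%) and 2429 lower (15.4%). Most of these differences were small. The median size among called genes was 0.42 on the log2 scale, 3193 called genes differed by less than 1.5-fold, and 1224 differed by at least 1 log2 unit (7.77%), 659 upwards (4.18%) and 565 downwards (3.59%). The median log2 difference over all tested genes was -0.01. Counts of called list members below stand beside the shares of 17.8% higher and 15.4% lower. The libraries of the groups did not overlap for 6910 genes (43.9%). Genes called higher spanned more of the genome, with a median of 36.9 kb from start to end, against 18.4 kb for genes called lower and 21.1 kb for all genes tested.

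**Figure D1:**
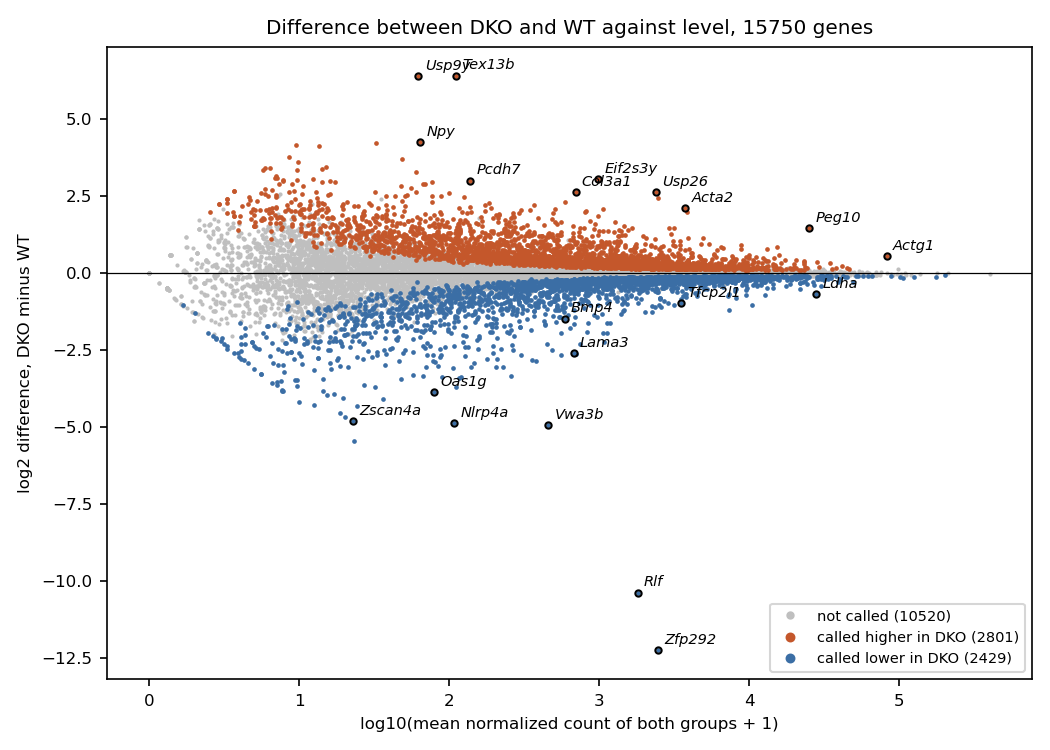
Log2 difference between DKO and WT in serum/LIF against the log10 of the mean normalized count + 1, 1 point per gene. Genes called higher (2801) and lower (2429) are coloured, and Rlf and Zfp292 lie far below all others, at -10.38 and -12.26.

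The targeted genes were almost without reads in DKO. Zfp292 (chromosome 4, 34803110 to 34882948 in mm10) stood at 5273, 4801 and 4652 normalized counts in WT and at 0 in each DKO library, where 0 reads were counted against 14965 in WT. With 3 reads over the DKO group in place of 0, it was at least 4276-fold lower. Rlf (chromosome 4, 121145883 to 121215084) stood at 3701, 3621 and 3510 in WT and at 0, 3.52 and 3.38 in DKO. Its 10999 reads in WT against 6 in DKO gave a 1571-fold lower level (95% interval from counting error alone, 722 to 4283). Every DKO library was thus at or near 0 for both genes.

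The DKO cells kept the core stem cell factors and had lower levels of several factors that respond to LIF. Pou5f1, which encodes OCT4, was at 33444 ± 730 (SD, n = 3) in WT and 30891 ± 474 in DKO, with a log2 difference of -0.11 that missed the threshold (adjusted p = 0.0662, limma). Nanog was at 12581 ± 265 and 13047 ± 297 (adjusted p = 0.598), and Sox2 fell by 0.14 (adjusted p = 0.0164). Of 24 stem cell identity genes tested, 9 were called lower and 2 higher, and their median log2 difference was -0.12. The lower count was 13 in the fit of the serum/LIF libraries alone and 11 without WT replicate 2 after RA. Without limma's trend and robust settings it was 7. The number called lower thus depended on how the spread was estimated.

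Tfcp2l1, which encodes a naive-state transcription factor induced by LIF and STAT3, showed a larger decrease. It stood at 4840, 4699 and 4402 in WT and at 2409, 2306 and 2361 in DKO, a log2 difference of -0.98 ± 0.06 (SE, adjusted p = 3.55e-12). The lowest WT library was well above the highest DKO library. Zfp42 (REX1), a marker of undifferentiated cells, fell by 0.31. Tbx3, a T-box factor, moved the other way, from 760 ± 36.9 to 1358 ± 90.4, as did Lin28a, an RNA-binding protein that blocks let-7 processing, from 14952 ± 518 to 19972 ± 378.

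Among 22 genes of the LIF and STAT3 pathway, 11 were called lower and 5 higher, with a median of -0.14. The receptor Lifr (log2 difference -0.26) and the signal transducer Stat3 (-0.25) were called lower, whereas the shared receptor chain Il6st (-0.06) and the kinase Jak1 (-0.03) were not called. Socs3, the feedback inhibitor that STAT3 induces, stood at 4760, 4744 and 4862 in WT and at 3470, 3389 and 3590 in DKO, with no overlap. Bcl3 (-0.76) and Gbx2 (-0.71), further genes induced by LIF, were lower, and Klf4 and Klf5 fell by 0.46 and 0.32. Pim1, Pim3 and Junb, which also follow LIF in these cells, were called higher, at 0.28, 0.49 and 0.61.

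**Figure D2:**
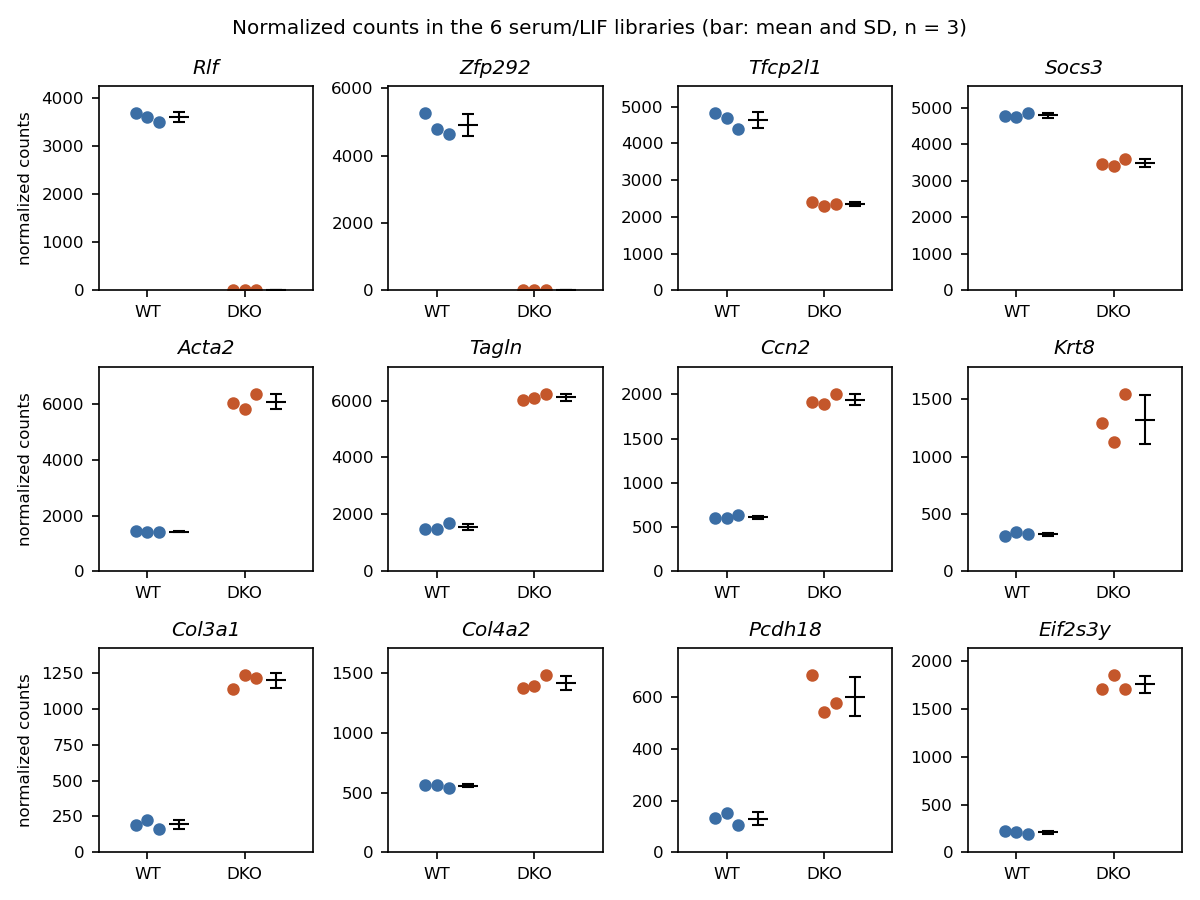
Normalized counts of 12 genes in the 3 WT and 3 DKO libraries in serum/LIF, 1 point per library, with the mean and SD beside them and axes starting at 0. Rlf and Zfp292 are at or near 0 in DKO, Tfcp2l1 and Socs3 are lower, and the points of the other 8 genes are higher in DKO, with no overlap in any of the 12.

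In the FGF and ERK list, 10 of 24 genes were called higher and 6 lower, against 17.8% and 15.4% of all genes tested. Fgf5, a ligand that marks cells leaving the naive state, stood at 11.5, 32.2 and 9.35 in WT and at 103, 127 and 124 in DKO. The receptors Fgfr1 and Fgfr2 were higher by 0.57 and 0.94, and so were the ERK-induced genes Egr1 (1.36) and Phlda1 (1.23). Spry4, Etv4 and Etv5, which are also induced by FGF signalling, fell by 0.86, 0.66 and 0.49.

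Of 27 genes of Nodal and TGF-beta signalling, 15 were called higher and 4 lower, with a median of 0.27. Of the 27, 1 passed the filter on low values through WT in serum/LIF alone. The ligand Nodal rose from 1268 to 2221 and its inhibitor Lefty1 from 1441 to 2355 (means, n = 3). Tgfb2, another ligand, stood at 97.4, 133 and 127 in WT and at 410, 434 and 406 in DKO, a log2 difference of 1.81 ± 0.11. The transducer Smad3 (0.70) and the activin antagonist Fst (1.92) were also higher. Tgfbi, a known target of TGF-beta, was lower, at -1.17, as was the activin subunit Inhbb (-1.71).

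BMP genes gave 10 called higher and 2 lower of 26, against 17.8% and 15.4% of all genes tested. Of the 26, 1 passed the filter on low values through DKO in serum/LIF alone. The ligands went in opposite directions: Bmp4 fell from 870 ± 46.6 to 309 ± 11.8, while the much lower Bmp2 rose from 25 ± 1.78 to 64.4 ± 3.07. The BMP targets Id1 (-0.24) and Id3 (0.02) were not called, and Id2 (0.38) and Id4 (1.06) were higher. Of 34 Wnt genes, 12 were called higher and 4 lower, against the same 17.8% and 15.4%. Their median was 0.21, and 1 of them passed that filter through WT in serum/LIF alone. Wnt7b stood at 38.2, 36.5 and 37.4 in WT and at 124, 144 and 115 in DKO, and the receptors Fzd1 and Fzd2 (0.85 and 0.57) and the feedback gene Axin2 (0.44) were higher as well.

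Genes of the actin cytoskeleton and of muscle contraction were higher in DKO more often than not. Of 30 contractile and actin genes tested, 23 were called higher and 2 lower, with a median log2 difference of 0.51, against 17.8% called higher and a median of -0.01 over all genes tested. Acta2, the smooth muscle actin, stood at 1431, 1424 and 1421 in WT and at 6021, 5827 and 6363 in DKO. That is a 4.26-fold higher mean and a log2 difference of 2.09 ± 0.04 (adjusted p = 1.05e-20), and the WT libraries differed among themselves by far less than the genotypes. Tagln (SM22), which binds actin in smooth muscle, rose 3.90-fold to 6113 ± 118.

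Cald1, which holds myosin off actin, rose 2.39-fold, and Vim, an intermediate filament protein, 1.69-fold. Acta1, the skeletal muscle actin, was at a low level, 37.7 ± 9.71 in WT and 210 ± 17.7 in DKO. The 2 members called lower, 1 without DKO replicate 1, were Des, the muscle intermediate filament (-0.71), and the myosin light chain Myl9 (-0.44). Srf, the transcription factor that drives many of these genes, was 0.18 higher (adjusted p = 0.0264), its coactivator Mrtfb was 0.21 higher and Mrtfa (-0.07) was not called. These factors are themselves counted in the list. Among the abundant actins, Actg1 showed the largest gain in normalized counts of all named genes, from 67554 ± 1305 to 97995 ± 2133, whereas Actb fell from 112743 ± 1518 to 100107 ± 1254.

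SRF binds a sequence known as the CArG box, so the promoters of the contractile genes were searched for it. RefSeq windows on GRCm38.p6, from 250 bases before to 50 after the start, were matched by symbol for 26 of the 30 genes. Of these, 6 held a CArG box, and 5 of the 6, Srf itself among them, were called higher. Of all 32851 windows available, 1.63% held a box. The list was made of genes many of which SRF drives, so this contrast cannot be read as a result. Of the whole list, 23 of 30 genes were called higher. The search reads both strands at once, because the reverse complement of a CArG box is again one. The 4 called genes with a box and the smallest adjusted p are shown to place the box relative to the start, each as the 250 bases before it, 5′ to 3′ on the gene's strand, with the box in capitals:
Acta1 (chr8:123894776-123895025, minus strand): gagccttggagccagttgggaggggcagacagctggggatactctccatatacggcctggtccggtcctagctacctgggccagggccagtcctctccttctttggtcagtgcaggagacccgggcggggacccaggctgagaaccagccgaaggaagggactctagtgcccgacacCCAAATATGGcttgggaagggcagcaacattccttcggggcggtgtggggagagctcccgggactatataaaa
Cnn2 (chr10:79988350-79988599, plus strand): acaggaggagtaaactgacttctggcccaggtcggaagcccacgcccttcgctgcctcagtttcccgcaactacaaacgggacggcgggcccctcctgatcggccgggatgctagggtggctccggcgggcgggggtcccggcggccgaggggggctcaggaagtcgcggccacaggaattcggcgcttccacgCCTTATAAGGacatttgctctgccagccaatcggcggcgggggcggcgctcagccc
Vcl (chr14:20929148-20929397, plus strand): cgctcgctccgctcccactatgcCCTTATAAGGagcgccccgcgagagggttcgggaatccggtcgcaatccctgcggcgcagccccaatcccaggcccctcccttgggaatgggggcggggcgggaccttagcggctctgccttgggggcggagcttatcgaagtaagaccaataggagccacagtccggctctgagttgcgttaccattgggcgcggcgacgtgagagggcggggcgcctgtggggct
Actc1 (chr2:114052876-114053125, minus strand): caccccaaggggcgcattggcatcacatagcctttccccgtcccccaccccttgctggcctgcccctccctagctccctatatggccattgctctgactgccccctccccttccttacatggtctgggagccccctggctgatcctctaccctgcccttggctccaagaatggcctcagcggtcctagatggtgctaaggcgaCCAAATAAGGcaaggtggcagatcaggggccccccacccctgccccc

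The box begins 73 bases before the start in Acta1, 56 in Cnn2, 227 in Vcl and 47 in Actc1. Their log2 differences were 2.47, 0.76, 0.52 and 0.91. Cnn2 encodes a calponin, Vcl the focal adhesion protein vinculin and Actc1 the heart actin. Myl9 also holds a box and was called lower, Srf holds 2 and was called higher, and the window of Acta2 holds no match. A match says only that the letters are there, and no match says nothing about binding.

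Targets of YAP and TEAD, the factors at the end of the Hippo pathway, also rose: 21 of 25 genes were called higher and 2 lower, with a median of 0.53. Ccn2, a secreted matrix protein and a standard YAP target, stood at 604, 603 and 632 in WT and at 1919, 1892 and 2009 in DKO. Ccn1, its relative, rose from 902 ± 94.9 to 1853 ± 101, and Amotl2, a junction protein that restrains YAP, from 1495 ± 91.3 to 3196 ± 216. Ptpn14 (0.85) was higher too. The factors themselves, Yap1 and Tead1, were 0.14 and 0.45 higher. Nuak2 (-0.46) and Dlc1 (-0.14) were the 2 called lower.

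The DKO cells had more RNA for collagens and basement membrane, with a few large exceptions. Of 37 collagen genes tested, 19 were called higher and 4 lower, with a median of 0.71, and 2 more were below the filter on low values. Col3a1, a fibrillar collagen of loose connective tissue, stood at 191, 228 and 165 in WT and at 1140, 1237 and 1217 in DKO, a 6.16-fold higher mean (log2 difference 2.63 ± 0.08, adjusted p = 3.39e-17). The libraries of the groups were far from overlapping. Col1a1 and Col1a2, the chains of type I collagen, rose 2.03-fold and 2.73-fold. Col17a1 (-1.94), Col26a1 (-1.37), Col5a2 (-1.22) and Col22a1 (-0.70) were lower.

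Type IV collagen, the sheet-forming collagen of basement membranes, is encoded by gene pairs that start back to back, and both genes of 2 pairs rose. Col4a1 rose from 1301 ± 56.7 to 2821 ± 76.2 and Col4a2 from 558 ± 14.4 to 1421 ± 58.7. Their starts lie on opposite strands of chromosome 8 and 21 bases apart, and their first bases overlap, which the following stretch shows (chr8:11312805-11312826, plus strand, all of it in capitals because it belongs to both transcripts):
Col4a1 and Col4a2: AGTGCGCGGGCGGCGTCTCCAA

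On the X chromosome, Col4a5 and Col4a6 start 1343 bases apart. Col4a5 stood at 147, 110 and 92.6 in WT and at 368, 451 and 430 in DKO, and Col4a6 at 32.5, 23.6 and 13.1 against 162, 101 and 126. For both genes the DKO libraries were all above the WT libraries. Col4a3 and Col4a4, the third pair, were not called: Col4a3 had means of 0 in WT and 2.33 in DKO, and Col4a4 of 0.955 and 1.5.

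Of 18 further basement membrane and matrix genes, 15 were called higher and 3 lower, so that all 18 were called. Agrn (agrin) rose 1.72-fold, Lamb1 1.57-fold and Lama5 1.48-fold. Fn1, fibronectin, had the fourth largest gain in normalized counts among named genes, from 30660 ± 1356 to 38418 ± 2446. The exceptions were laminin alpha chains. Lama3, the chain of epithelial anchoring laminin, stood at 1255, 1115 and 1119 in WT and at 195, 194 and 179 in DKO, a mean 6.15-fold lower. Lama1 (-0.37) and the scarce Lama2 (-1.20) were lower too.

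Among 23 integrin genes, 8 were called higher and 4 lower, against 17.8% and 15.4% of all genes tested. Without any 1 of the WT replicates or DKO replicate 1, 2 were called lower. Itgb1, the common beta chain, rose 1.38-fold to 16981 ± 684, and the low Itgb8 stood at 3.82, 12.9 and 9.35 in WT and at 49.3, 59.9 and 51.8 in DKO. Itgb7, a chain of leukocyte integrins, fell by 1.05. Enzymes that process matrix gave 13 higher and 6 lower of 26. Bmp1, the protease that trims procollagen, rose 2.97-fold, whereas its enhancer Pcolce fell from 3155 ± 176 to 1315 ± 161. Adamts1, a protease of proteoglycans, rose 3.82-fold.

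Epithelial and mesenchymal genes rose in the same libraries. Of 24 epithelial genes, 17 were called higher and 2 lower, with a median of 0.42. Krt8, a keratin of simple epithelia, stood at 311, 340 and 322 in WT and at 1289, 1126 and 1548 in DKO, and its partner Krt18, a neighbour on chromosome 15, rose 3.15-fold. Dsp (desmoplakin) rose 2.28-fold. Cdh1, the epithelial cadherin, was 0.39 higher, and Epcam was lower, at -0.29. Of 12 mesenchymal factors, 6 were called higher and 0 lower (1 lower without WT replicate 2 or DKO replicate 2). Cdh2 (N-cadherin) rose from 827 ± 55.5 to 1879 ± 47.2, Zeb2, a repressor of Cdh1, 1.82-fold, and the low Foxc1 and Cdh11 by 1.62 and 1.61. Zeb1 (-0.19) and Tcf4 (-0.08) were not called.

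Non-clustered protocadherins, adhesion molecules best known from neurons, showed large increases from low levels. Of 11 tested, 8 were called higher and 0 lower, with a median of 1.48 that ran from 0.99 to 2.05 over other settings. Pcdh7 stood at 28.6, 34.4 and 27.1 in WT and at 232, 236 and 268 in DKO, and Pcdh17 at 19.1, 4.30 and 11.2 against 87.1, 131 and 101. Pcdh18 rose 4.59-fold to 600 ± 75.7. Pcdh1, the most abundant member, rose 2.00-fold to 1385 ± 144.

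Several secreted neuropeptides were higher as well, although the list as a whole was mixed, with 6 called higher and 2 lower of 16. Of the 16, 1 passed the filter on low values through DKO in serum/LIF alone. Npy, which encodes neuropeptide Y, had 4, 4 and 10 reads in WT and 109, 102 and 105 in DKO, a 20.5-fold difference (95% counting interval 12.7 to 35). Nts (neurotensin) had 18 reads over the WT group and 230 over DKO. Vgf, a granin-like precursor, rose 4.96-fold to 990 ± 119. Pcsk1, which cleaves such precursors, and Calca were lower, at -1.70 and -1.01.

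**Figure D3:**
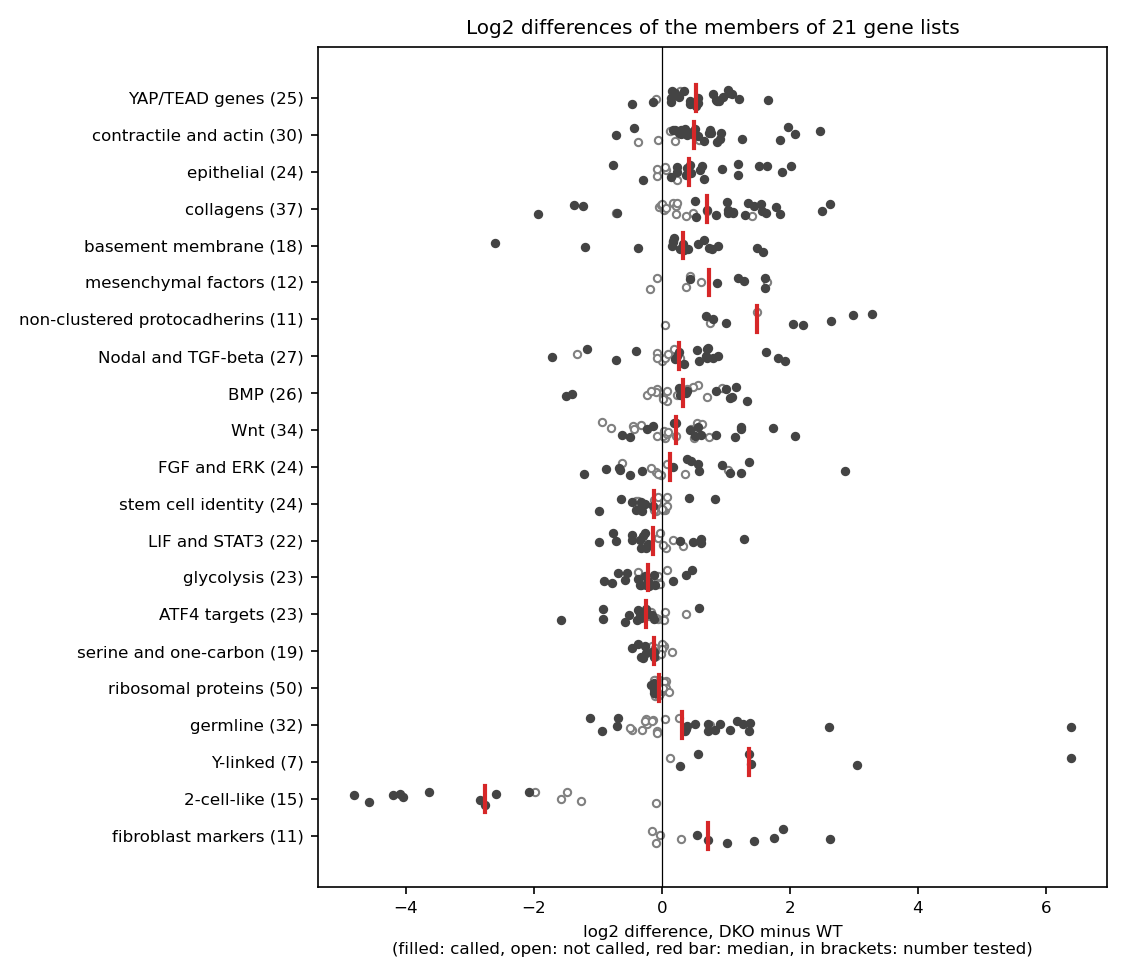
Log2 differences between DKO and WT of the tested members of 21 gene lists, 1 point per gene, filled where called and open where not, with the list median as a red bar and the number tested in brackets. Medians run from 1.48 for non-clustered protocadherins to -2.77 for genes of the 2-cell-like state, and the medians of the cytoskeleton, matrix and epithelial lists lie to the right of 0.

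Glycolysis genes were called lower more often than higher. Of 23 glycolysis genes, 14 were called lower and 3 higher, with a median of -0.21. Ldha, which makes lactate, stood at 33655, 35668 and 34269 in WT and at 21501, 22045 and 20859 in DKO, 1.61-fold lower (adjusted p = 0.00453). The phosphofructokinase Pfkp was 1.72-fold lower, and the kinase Pdk1 1.46-fold. The glucose transporter Slc2a1 fell by 0.37, and Hk1 rose by 0.38. Respiratory chain genes differed by less, with 10 of 30 called lower, 0 higher and a median of -0.06. Without WT replicate 3, 5 were lower and 3 higher, and without DKO replicate 1 or 3, 5 or 6 were lower. Ndufv1 at -0.20 had the smallest adjusted p among them.

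Targets of ATF4, the factor of the amino acid stress response, gave 15 called lower and 1 higher of 23, with a median of -0.25. Atf4 itself fell from 12797 ± 594 to 9784 ± 52.1. Trib3, a pseudokinase that feeds back on ATF4, stood at 1617, 1684 and 1900 in WT and at 845, 960 and 933 in DKO, and Nupr1, a stress-induced chromatin protein, was 2.98-fold lower. Atf3 (0.59) was the 1 called higher. Serine and one-carbon enzymes, which share Psat1 and Phgdh with that list, gave 9 lower and 0 higher of 19, among them Psat1 (-0.38), Psph (-0.47), Phgdh (-0.33) and Mthfd2 (-0.25).

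Cholesterol genes were split, with 7 higher and 6 lower of 24, against 17.8% and 15.4% of all genes tested. Without WT replicate 2 or DKO replicate 1, 3 were lower. Cyp51, a sterol demethylase, was higher (0.37), and Insig1, which holds back sterol synthesis, lower (-0.26). Of 50 ribosomal protein genes, 6 were called lower and 0 higher, a smaller share than the 15.4% of all genes called lower, and no difference exceeded 0.17 in size. The lower count was 14 without WT replicate 1, 10 without DKO replicate 3, 2 without DKO replicate 1, 1 without WT replicate 3 (with 3 higher) or DKO replicate 2, and 0 without limma's trend and robust settings. Npm1, a nucleolar protein, Gapdh and Hsp90aa1 lost many normalized counts at differences of only -0.13, -0.13 and -0.09. Npm1 was not called without DKO replicate 1, nor were Npm1 and Gapdh without the trend and robust settings. For Hsp90aa1 the adjusted p was 0.0337, and it was above 0.05 in 8 other settings of the analysis. Many genes of this paragraph have processed copies elsewhere in the genome, and how shared reads were counted is not given in the sources used here.

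Of 20 genes of DNA methylation, 6 were called in each direction, against 17.8% higher and 15.4% lower of all genes tested. Their median was -0.03, and 1 of them passed the filter on low values through WT in serum/LIF alone. Dnmt3a fell from 12932 ± 194 to 9493 ± 112, while Dnmt3l, its catalytically inactive partner, rose from 9163 ± 207 to 13102 ± 183. Tet2, which oxidises methylcytosine, was 1.80-fold lower, and Zbtb38, a protein that binds methylated DNA, stood at 834, 821 and 807 in WT and at 330, 329 and 358 in DKO.

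Of 29 genes of H3K9 methylation and silencing, 5 were called higher and 5 lower, shares near the 17.8% and 15.4% of all genes tested. Without WT replicate 3 or DKO replicate 2, 2 or 3 were higher, and without WT replicate 1 or 2, 3 were lower. Atf7ip, the partner of the methyltransferase SETDB1, was 1.5-fold lower, and Suv39h1, a methyltransferase on the X chromosome, 1.5-fold higher. Setdb1 (0.05) and Trim28 (-0.07) were not called. Of 19 genes of the CoREST complex and its partners, 7 were called lower and 3 higher, against 15.4% and 17.8% of all genes. Their median log2 difference was -0.07. The lower count was 2 without WT replicate 2, 3 without WT replicate 1, WT replicate 3 or DKO replicate 3, and 4 without DKO replicate 1. Kdm1a was at 9821 ± 278 in WT and 9039 ± 109 in DKO (-0.12, adjusted p = 0.016), Ctbp2 was lower (-0.27) and Rreb1 higher (0.28). The deacetylases Hdac1 and Hdac2 (-0.02 for the latter) were not called. For Kdm1a the call was lost without WT replicate 2.

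Germline genes, many of which DNA methylation keeps silent in somatic cells, gave 15 higher and 4 lower of 32 tested, with a median of 0.32. Tex13b (X chromosome, 140808307 to 140813433 in mm10) had 2, 2 and 1 reads in WT and 198, 183 and 190 in DKO, a 133-fold difference (95% counting interval 56.8 to 412). Usp26, a germ cell deubiquitinase also on the X chromosome, rose from 674 ± 15.5 to 4122 ± 313, and Dazl, an RNA-binding protein of germ cells, 2.55-fold. Stra8, the gatekeeper of meiosis, went down from 3242 ± 113 to 1488 ± 78.2.

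Y-linked genes were higher in all DKO libraries. Of 7 tested, 6 were called higher and 0 lower, with a median of 1.37. Eif2s3y stood at 225, 217 and 195 in WT and at 1711, 1858 and 1704 in DKO, and Ddx3y at 795, 722 and 723 against 1930, 2110 and 1863. Usp9y had 2 reads over the WT group and 318 over DKO, which is 186-fold more per depth (95% counting interval 50.9 to 1538). The increases were unequal, since Uty (0.28) and Kdm5d (0.57) changed far less and Zfy1 (0.13) was not called. The X-linked relatives of these genes gave 0 called of 7 in the main limma fit, and Ddx3x was at 40989 ± 1096 and 41786 ± 1524. With the 6 serum/LIF libraries alone, or without WT replicate 2 after RA, 1 of the 7 was called higher.

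Chromosome X had a larger share of genes called higher than any autosome. Of its 579 tested genes, 177 were called higher (30.6%) and 50 lower (8.64%), and their median log2 difference was 0.10. Over the 19 autosomes, 13.1% to 21.3% were called higher and 12.7% to 20.8% lower, and medians ran from -0.04 to 0.03. Klhl13, a ubiquitin ligase adaptor, Flna, which crosslinks actin, and Morf4l2, all on X, were among the 10 largest gains in normalized counts. Klhl13 rose 1.77-fold to 19654 ± 1172. Chromosome 11 had the lowest median of the autosomes and the largest share of genes called lower.

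**Figure D4:**
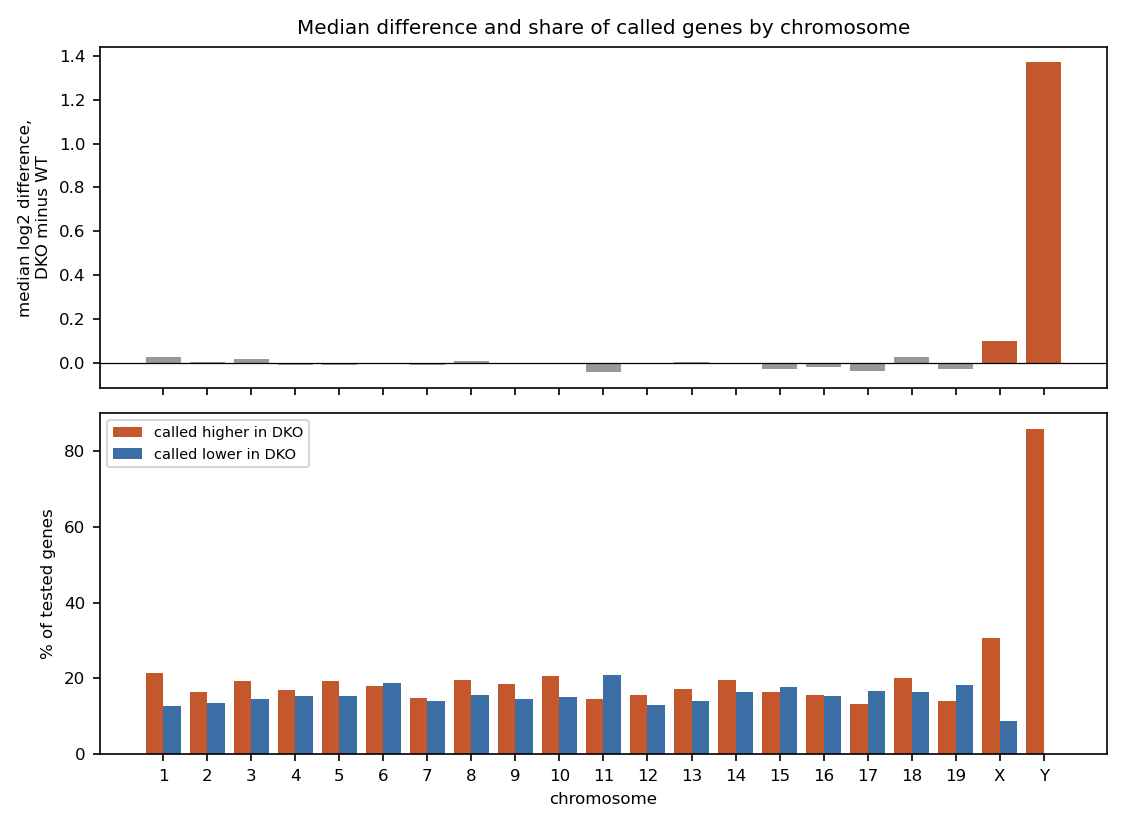
Median log2 difference between DKO and WT of the tested genes of each chromosome (top) and the percentage of them called higher or lower in DKO (bottom). Medians of the autosomes lie between -0.04 and 0.03, that of X is 0.10, and that of the 7 Y-linked genes is 1.37.

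Besides the targeted genes, 8 genes had the largest log2 decreases among called genes with a mean of at least 100 in WT and no overlap, predicted and overlapping gene models left out. Vwa3b stood at 908, 852 and 899 in WT and at 36.7, 23.5 and 24.8 in DKO, 31.3-fold lower. Nlrp4a and Nlrp9b, members of an oocyte-rich NLR family, were 33.7-fold and 10.4-fold lower, Zscan5b 13.8-fold, the homeobox gene Rhox1 11-fold and Pramel7, a gene of the inner cell mass, 10.7-fold. Txlnb (-3.31) and Oas1g complete the set. In the list of interferon and MHC genes, 8 of 36 were called lower and 6 higher, not far from the 15.4% and 17.8% of all genes tested. Oas1g, an RNA sensor, stood at 151, 144 and 148 in WT and at 13.8, 11.7 and 4.51 in DKO, whereas Isg15 (1.7) and Ifit2 (1.09) were higher. H2-K1, an MHC class I heavy chain, was 1.45-fold lower, and Tap1 and Tapbp, which load it, were higher, at 0.67 and 0.41.

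Genes of the rare 2-cell-like state of stem cell cultures were lower. Of 22 genes in the list, 17 were in the table and 15 passed the filter, of which 10 were called lower and 0 higher. Their median of -2.77 depends on the handling of low values, with -1.37 at a pseudocount of 4 and -4.43 in edgeR. Levels were low: Zscan4d stood at 33.4, 38.7 and 31.8 in WT and at 0, 2.35 and 0 in DKO, and Zscan4a at 42.0, 58.0 and 28.1 against 0, 2.35 and 0. The Zscan4, Usp17l and Tcstv genes are near-identical copies, so reads may have been split among them. Eif1a, the abundant member, was not called, at -0.09.

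Markers of other cell types were present at low to moderate levels, and some rose. For fibroblasts, 7 of 11 tested markers were called higher and 0 lower (1 lower without DKO replicate 2), and the summed normalized counts of the list ran from 4872 to 5053 in WT and from 11042 to 11882 in DKO. Most of the sum is Col1a1, Col1a2 and Col3a1, which were also counted as collagens. Thy1 (-0.09), Pdgfra (0.31) and Pdgfrb (-0.15) were not called, and Fap and S100a4 were below the filter. Trophoblast markers gave 6 higher and 0 lower of 14, with sums of 5338 to 5574 and 6551 to 7677. Esx1, Gata3, Eomes and 3 keratins rose, and Cdx2 (-0.33), Elf5 (-1.20) and Hand1 (-0.43) were not called. Krt8 and Krt18 were also counted as epithelial genes, and Gata3 as a BMP gene.

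Markers of extraembryonic endoderm, which share Sparc, Col4a1 and Lama1 with the matrix lists, gave 7 higher and 2 lower of 16, with sums of 18353 to 18660 in WT and 24558 to 25717 in DKO. Lrp2, an endocytic receptor, rose 2.19-fold, Gata4 (-0.22) and Gata6 (0.24) were not called, and Ttr was listed at 0 in all 6 libraries. Neural markers gave 7 higher and 2 lower of 14 (sums of 23962 to 25798 and 27768 to 28460), with Nes 1.7-fold and Fabp7 4.35-fold higher and Pax6 lower at -0.95. Endothelial markers gave 3 higher and 5 lower of 14, against 17.8% and 15.4% of all genes tested. Among them Kdr was 4.51-fold higher and Vwf 3.84-fold lower (sums of 8099 to 8655 and 8168 to 8684). Blood markers (2 higher and 0 lower of 7, with Runx1 and Cd44 higher, sums of 291 to 297 and 464 to 518, where 4 members passed the filter through only 1 of the groups) and heart markers (2 higher and 2 lower of 11, with Myh7 higher and Myh6 lower, where 1 member passed the filter through DKO alone, sums of 2222 to 2282 and 1733 to 1878) changed in few members. The part of such cells in the differences of the cytoskeleton, matrix and epithelial genes was not tested. For heart markers, the shares called were near the 17.8% higher and 15.4% lower of all genes tested.

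Among cell cycle genes, 5 were called higher and 4 lower of 24, again near the 17.8% and 15.4% of all genes, and 2 were lower without DKO replicate 1. Cdk6, a kinase of the G1 phase, rose from 785 ± 47.0 to 2019 ± 111, and Ccne1 was 1.31-fold lower. Other large gains in normalized counts were Peg10, an imprinted gene derived from a retrotransposon, which stood at 13752, 13638 and 13292 in WT and at 37190, 37199 and 36011 in DKO, and Fat1, an atypical cadherin, which rose 1.5-fold. Losses in normalized counts included Top2a, which untangles DNA in mitosis (1.23-fold lower), the transferrin receptor Tfrc (-0.53 on the log2 scale), the stress granule protein G3bp2 (1.34-fold) and Odc1, the first enzyme of polyamine synthesis (1.23-fold).

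Repeats were counted by name over all copies in a separate table with size factors of its own, and 115 of 1170 were called (9.83%), 65 higher (5.56%) and 50 lower (4.27%). By at least 1 log2 unit, 11 differed (0.94%), 8 upwards (0.684%) and 3 downwards (0.256%), and the median over all repeats was 0.01. These counts are less firm than those of genes: leaving out 1 serum/LIF library gave 72 to 91 called, with 72 without WT replicate 2 and 73 without DKO replicate 1, limma without its trend and robust settings gave 62, and rescaling to equal totals gave 15. The last value rests on WT replicate 2 after RA, which holds many more reads in repeats, and was 135 without it.

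Internal parts of several endogenous retroviruses, the coding body between the terminal repeats, were higher in DKO, though the typical internal part was not. This division by name was made after the values were seen. Of 18 internal names of the ERV1 family, 5 were called higher and 1 lower, and their summed normalized counts rose from 59359 ± 2220 to 76734 ± 3052, while their median log2 difference was -0.02. Most of that gain lay in MMERGLN-int, with 9746 normalized counts, and RLTR1B-int, with 6471. MMERGLN-int was not called when values were rescaled to equal totals. RLTR1B-int stood at 6317, 6059 and 6356 in WT and at 12536, 12039 and 13570 in DKO, a 2.04-fold higher mean, and the libraries of the groups did not overlap, which held for 314 of 1170 repeats (26.8%). Of 43 internal names of ERVK, 11 were called higher and 4 lower, with a median of -0.05. ETnERV3-int rose 1.93-fold, MMERVK10C-int 1.77-fold and IAPEz-int from 3752 ± 391 to 5366 ± 82.8.

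Terminal repeats were called lower more often than higher: of 217 ERVK names 4 were called higher and 13 lower, with a median of -0.04. Over all repeats, 5.56% were called higher and 4.27% lower, so the share of these names called lower was not far from that of all. RLTR16B_MM, the largest decrease among called repeats, stood at 927, 1032 and 1068 in WT and at 402, 412 and 467 in DKO. Among ERVL elements, MERVL-int, which is active in 2-cell-like cells, was lower, at 2008, 1817 and 1631 in WT and 1175, 1079 and 1158 in DKO, and its terminal repeat MT2_Mm fell from 623 ± 20.3 to 452 ± 12.3. Young LINE-1 names beginning with L1Md gave 4 higher and 0 lower of 6, and L1Md_T rose from 7238 ± 379 to 9162 ± 594. The simple repeat (ATAAG)n rose 2.65-fold and L1M6B 2.85-fold. The satellite MMSAT4, the most abundant of the named repeats, fell by 0.16 with an adjusted p of 0.0315 that was above 0.05 in 8 other settings.

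**Figure D5:**
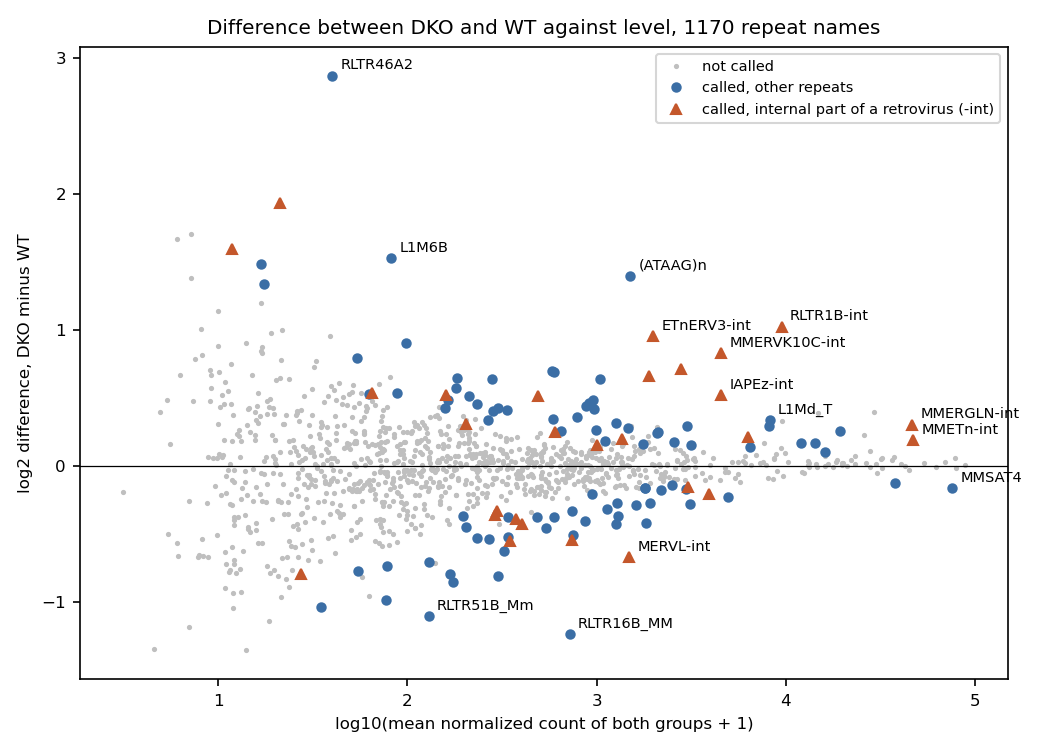
Log2 difference between DKO and WT in serum/LIF against the log10 of the mean normalized count + 1 for 1170 repeat names, with called internal parts of retroviruses as triangles and other called repeats as filled circles. The abundant called triangles lie mostly above 0 (RLTR1B-int at 1.02), and MERVL-int lies below, at -0.67.

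After RA the difference between the genotypes was not the same for the 3 marker genes that were not targeted. The interaction, the log2 difference after RA minus that in serum/LIF, was called for 4852 genes (30.8%). Tfcp2l1 had fallen to 494, 456 and 502 in WT after RA and stood at 922, 874 and 965 in DKO, so that DKO was now higher (log2 difference 0.93, interaction 1.90 ± 0.08, adjusted p = 3.39e-14). Acta2 after RA averaged 7383 ± 427 in WT and 10548 ± 155 in DKO, a smaller difference than in serum/LIF (0.52, interaction -1.57, adjusted p = 1.1e-14). Col3a1 was at 3597 ± 104 and 8995 ± 303 (1.32, interaction -1.31, adjusted p = 4.09e-09). The level of Acta2 and Col3a1 in DKO in serum/LIF lay below that of WT after RA for both genes.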

How the data were processed

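RNA from 12 libraries of TT2 cells was used, 6 of them for this comparison, grouped by title and genotype label. Per the submitters' processing notes, reads went through Trim Galore 0.6.10, STAR 2.7.11b, featureCounts (Subread 2.0.6) and DESeq2 1.44.0 on mm10. How strand and reads mapping to several places were handled is not given in the sources used here. Each library's column, as deposited by the authors, holds a signal that is the read count divided by a size factor; 100% of values were whole reads within 0.01. Per the file headers, both tables also give log2 fold changes and adjusted p-values. In the authors' deposited table, 5361 genes and 121 repeats pass 0.05 in serum/LIF, of which 5055 and 109 were also called here, all with the same sign.

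Values were fitted as log2(value + 1) with limma 3.58.1 (R 4.3.3; empirical Bayes, trend, robust) over all 12 libraries with 1 mean per group, after keeping rows with 10 or more in at least 3 libraries. This left 2151 genes and 217 repeats out. Through WT in serum/LIF alone 242 genes passed that filter, and through DKO in serum/LIF alone 168. Benjamini-Hochberg adjustment covered each table. The 38 gene lists are described by counts and medians only. The members and lists were chosen with earlier results of these data known. Named genes are the 5 markers, the 10 largest log2 differences each way (called, higher group averaging at least 100, no overlap), the 10 largest differences in normalized counts each way, and up to 4 called members per list. The text names part of these, and other list members, such as Pou5f1, Nanog and Dazl, were chosen after their values were seen. Some genes are not reported here. Promoter windows were matched for 78.6% of tested genes, so no share by call is given. Depth was 31410028 to 40236799 reads in genes and 2164824 to 2702279 in repeats; counting intervals (95%, exact binomial) and the floor of 3 reads cover counting error only. The fit was tested on simulated data. Replicates differed by 4.22 to 7.96 times sampling noise (chi-square per degree of freedom), so none was a repeat deposit. Alternatives, some chosen after seeing the data, are given in the closing section.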

Additional observations from a re-analysis of the deposited data

Results flagged for a closer look

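The genotype difference of Tfcp2l1, Acta2 and Col3a1 after RA differed from that in serum/LIF by the interaction term of the limma fit, with values of 1.90, -1.57 and -1.31 on the log2 scale (adjusted p = 3.39e-14, 1.1e-14 and 4.09e-09, 3 libraries per group). For Tfcp2l1 the sign changed, from -0.98 in serum/LIF to 0.93 after RA. For Acta2 and Col3a1 all DKO libraries were above all WT libraries in both conditions.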

How the results depend on the processing

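The number of genes called lay between 4409 and 5485 under all alternatives, and of 170 named genes 161 to 169 stayed called, against 169. Ddx3x, not called, changed sign without DKO replicate 2 (-0.0026), within -0.0026 to 0.0483 over left-out libraries. Of the 38 list medians, those of cholesterol, H3K9 silencing and the X-linked relatives of Y genes, all near 0, changed sign when some single libraries were left out. The median of the heart markers, 0 in the main fit, ran from -0.162 to 0.102 over the settings. The X median moved to 0.131 without DKO replicate 3, within a range of 0.0943 to 0.131 over left-out libraries. Without a filter on low values the Y median was 0.572, since more genes at or near 0 entered. For repeats, the stricter filter of 50 left 7 with a log2 difference of 1 or more. Without trend and robust settings, 62 were called, 35 higher and 27 lower. Rescaled to equal totals, 15 were called, 10 higher and 5 lower, 7 of them by 1 log2 unit or more; the same without WT replicate 2 after RA gave 135, with 56 higher and 79 lower. Leaving out 1 library gave 72 to 117 repeats called, 37 to 67 higher and 32 to 50 lower (the upper ends without WT replicate 2 after RA; at most 91 without a serum/LIF library), and 8 to 13 by 1 log2 unit or more. All interactions held, ranging from 1.84 to 1.94 for Tfcp2l1, -1.62 to -1.54 for Acta2 and -1.43 to -1.19 for Col3a1. Over genes, r between WT and DKO libraries of the same number was 0.0111, 0.0206 and 0.0507. For unlike numbers it ran from -0.0327 to 0.0124. Values this small cannot settle whether the numbers pair libraries. With the replicate block 5061 genes and 105 repeats were called. The fit of the 6 serum/LIF libraries alone, whose spread holds no RA library, called 5081 genes and 87 repeats. edgeR and DESeq2, chosen for the 6 serum/LIF libraries after seeing the data, called 5144 and 4812 genes and 88 and 91 repeats; the planned runs on 12 libraries were not run. Depth limits genes with a few reads, where folds carry wide counting intervals.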

Other observations

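Beyond the lists, windows of 10 consecutive tested genes were ranked by their median log2 difference after the values were seen. Those given here come from the ends of that ranking, so their medians and calls do not show that neighbours move together. Over all genes tested, 17.8% were called higher and 15.4% lower, and on the X chromosome 30.6% and 8.64%. On the X chromosome, the window from Frmpd3 to Col4a5, which holds Tex13b and Col4a6, had a median of 1.51, with 5 called higher and 1 lower. On chromosome 8, the window from Efnb2 to Col4a2 had 7 called higher and 0 lower, and on chromosome 5 the window from Sema3d had 8 higher and 0 lower. Windows with low medians included the Tcstv genes on chromosome 13 (-2.53), the Zscan4 genes on chromosome 7 (-2.15), and the window from Hoxa2 to Hoxa10 on chromosome 6, where 7 of 10 were called lower and 1 higher. No test of such windows was made.

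Some gene families were picked by name after seeing the values, beside 17.8% called higher and 15.4% lower of all genes tested. Several were mixed: Gbp genes gave 3 higher and 3 lower of 10, Serpinb 3 and 2 of 7, Rhox 1 and 2 of 8, and Sema 8 and 3 of 20. Others leaned in 1 direction, which is partly a product of this choice. Of 22 ephrin and Eph receptor genes, which guide cells by contact, 10 were called higher and 0 lower, with a median of 0.30. Of 15 Pramel genes, 8 were called lower and 0 higher, of 9 Oas genes 5 lower and 0 higher, and of 9 Hoxa genes 5 lower and 1 higher. Of 55 zinc finger genes named Zfp9 with 2 further digits, 19 were called lower and 1 higher, with a median of -0.13.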
